A study of Mus musculus with 2 samples.

Results

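Endothelial cells (ECs) with little cancer RNA made up 107 of the 40638 barcodes in 2 single-cell RNA libraries of Lewis lung carcinoma (LLC) tumors, namely 57 of the 15007 sGC Ctr barcodes and 50 of the 25631 sGC ∆PC barcodes. The cells were selected on their own measured values. A barcode had to hold at least 1000 UMIs (unique molecular identifiers, each standing for 1 captured transcript), under 10% of them from the mitochondrial genome, and at least 5 UMIs from at least 3 of 6 endothelial markers, Pecam1, Cdh5, Cldn5, Plvap, Egfl7 and Emcn. It also had to lie under 475 CPM (the UMIs of a gene as a share of all UMIs, on the usual per-million scale) for the cancer genes Rhox5, Krt8, Krt18 and Hmga2 summed, under 500 CPM for the myeloid genes Tyrobp, Fcer1g and Ctss summed, and at no more than 2 UMIs of Rgs5, a pericyte gene. Levels of these 14 genes are therefore descriptions of the choice and not findings.

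The study asked what the loss of soluble guanylyl cyclase (sGC), the nitric oxide receptor, from pericytes does to tumor vessels. Mice of the C57BL/6 background carried floxed alleles of Gucy1b1, which encodes the beta subunit of the enzyme. In sGC Ctr the genotype was Gucy1b1 flox/flox without Cre, and in sGC ∆PC it was Cspg4-CreERT2 together with Gucy1b1 flox/flox. Tamoxifen was given to both groups in 5 doses when the mice were 4 weeks old. They were inoculated under the skin with LLC cells, a mouse lung cancer line, at 8 weeks, and the tumors were taken out 2 weeks later and pooled, 3 tumors to 1 library in each group. The Cre recombinase is driven by Cspg4 (NG2), a gene of pericytes and other mural cells, so the deletion was not directed at ECs. With 1 library per group no difference between the groups could be tested, genotype and library cannot be told apart, and every interval below is a 95% interval of counting error alone.

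Tumor ECs form new vessels in response to vascular endothelial growth factor, with migrating tip cells at the front of a sprout and Notch signaling between neighbors. Arterial, capillary, venous and lymphatic ECs carry different genes, and ECs can also take up fatty acids, display peptides on MHC molecules and attract leukocytes once exposed to interferon. They make nitric oxide with the synthase Nos3, and pericytes around them sense it with sGC.

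The limit on cancer RNA removed the most barcodes that carried endothelial markers. In sGC Ctr 98 barcodes of sufficient quality carried the markers, 64 were also under the cancer limit, 59 under the myeloid limit and 57 under the Rgs5 limit. In sGC ∆PC the same steps left 237, 60, 52 and 50 barcodes. The members just inside the cancer limit held 469, 439 and 435 CPM of cancer genes in sGC Ctr and 421, 365 and 349 CPM in sGC ∆PC, and the nearest barcodes outside it held 564, 569 and 596 CPM and 487, 496 and 535 CPM. The cells were 0.380% of all barcodes in sGC Ctr (exact binomial interval 0.288 to 0.492%) and 0.195% in sGC ∆PC (0.145 to 0.257%). Before the cancer limit the barcodes with markers were 98 of 15007 and 237 of 25631, so the share was then higher in sGC ∆PC. The median depth of all barcodes was 23337 UMIs in sGC Ctr and 8019 UMIs in sGC ∆PC. The libraries had 131 barcode sequences in common, and 1 sGC ∆PC member had a barcode that also occurred among the sGC Ctr barcodes, though not among the sGC Ctr members.

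**Figure D1:**
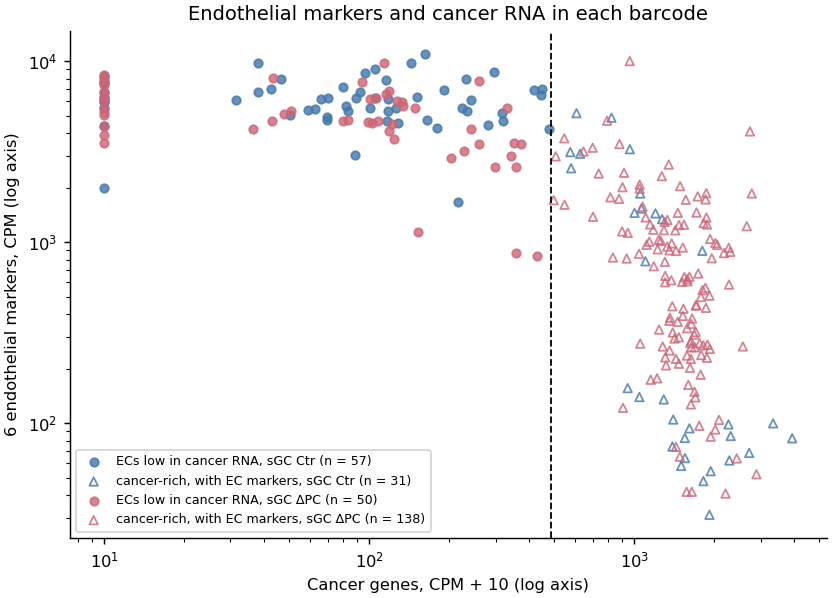
Each point is 1 barcode that carries endothelial markers, with its summed cancer genes (CPM + 10, log axis) against its summed 6 endothelial markers (CPM, log axis), for sGC Ctr (blue) and sGC ∆PC (red). The dashed line is the limit of the rule; filled circles left of it are the 57 and 50 ECs low in cancer RNA, with median marker levels of 6128 and 4871 CPM, and open triangles are the 31 and 138 cancer-rich barcodes with endothelial markers, with medians of 135 and 642 CPM.

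The cells were deeply sequenced, with more shallow cells in sGC ∆PC. Their UMIs summed to 1468845 (sGC Ctr) and 1068780 (sGC ∆PC), with a median per cell of 23410 (range 2279 to 83677) and 18754 (2994 to 71972). Under 10000 UMIs were held by 7 of 57 and 19 of 50 cells, so counts of cells with a UMI of a gene are compared between the libraries at equal depth only where thinning to 2000 UMIs is stated. The median cell had 4869 and 4401.5 genes detected and a mitochondrial share of 4.23% and 4.65%. All 6 markers of the rule were found in 48 of 57 and 40 of 50 cells. The 31 and 138 barcodes that passed every other limit but exceeded the one on cancer RNA had medians of 64142 and 21511.5 UMIs, and their summed endothelial markers stood at 740 and 491 CPM, against 6474 and 5595 CPM in the cells described here. Cancer markers stood at 1862 and 1971 CPM in these cancer-rich barcodes, against 2819 and 2609 CPM in cancer barcodes, levels that the selection itself set, and their cell type was not tested.

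Genes that the rule did not use carried the endothelial label. Of 25 further endothelial genes all 25 were detected, and their summed level was 8079 CPM in sGC Ctr and 7779 CPM in sGC ∆PC, against 460 and 406 CPM in macrophage barcodes and 105 and 115 CPM in cancer barcodes. Mural barcodes, with at least 5 UMIs of Rgs5, held 1030 and 497 CPM of these genes, and the cancer-rich barcodes 937 and 656 CPM. The VEGF receptor gene Flt1 was found in 52 of 57 and 44 of 50 cells, the receptor tyrosine kinase gene Tie1 in 54 and 41, and the receptor phosphatase gene Ptprb in 55 and 39. Among the 10 genes that stood highest above both macrophage and cancer barcodes were Igfbp7, Igfbp3 and Gpihbp1. The 6 markers of the rule were in that set by construction, since barcodes with any UMI of them had been kept out of the macrophage and cancer barcodes. Igfbp7, a secreted protein of vessel walls, was at 5011 and 4647 CPM in ECs and at no more than 9.1 CPM in macrophage and 6.1 CPM in cancer barcodes. Mural barcodes held Igfbp7 at 1987 and 984 CPM. Gpihbp1, which holds lipoprotein lipase on the capillary surface, was at 1830 and 1643 CPM in ECs and under 1 CPM in macrophage and cancer barcodes. In mural barcodes Gpihbp1 was at 103 and 19.1 CPM. Outside ribosomal and mitochondrial genes the most abundant transcripts, in UMIs not divided by length, were Gm42418, Tmsb4x, Malat1, Vim, Actb, Sparc, Tpt1, Ctla2a, Eef1a1 and Igfbp7.

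Transcripts of other cell types were low, and the rule itself capped some of them. The 14 pericyte and smooth muscle markers, Rgs5 of the rule among them, summed to 204 CPM in sGC Ctr and 129 CPM in sGC ∆PC. The most abundant gene of this list was Kcnj8. Kcnj8 and Abcc9, the pore and the sulfonylurea receptor of an ATP-sensitive potassium channel, made up 179 and 84 of the list's 300 UMIs in the sGC Ctr cells and 70 and 52 of its 138 UMIs in the sGC ∆PC cells. Kcnj8 was found in 26 of 57 and 16 of 50 cells at 122 and 65.5 CPM, and Abcc9 in 29 and 20 cells at 57.2 and 48.7 CPM. The pericyte genes Pdgfrb and Notch3 gave 1 and 1 UMI in sGC Ctr and 1 and 0 in sGC ∆PC, and Cspg4 gave 0 UMIs in both, where 3 UMIs would be 2.04 and 2.81 CPM. Relative to mural barcodes, which held at least 5 UMIs of Rgs5, Kcnj8 in the ECs stood at 39.1% and 37.3% of the mural level, and Abcc9 at 22.4% and 28.1%, while Pdgfrb was at 0.681 and 0.936 CPM in the ECs and at 340 and 226 CPM in mural barcodes. At an equal depth of 2000 UMIs, Kcnj8 was seen in 8 of 57 and 6 of 50 ECs, 58.8% and 36.0% of mural barcodes (median depth before thinning 14399 and 10711.5 UMIs), and at most 0.244% of macrophage barcodes (medians 9098.5 and 6424 UMIs) or cancer barcodes (41684 and 9340 UMIs). The channel genes were thus measured in the ECs at a level that the other mural markers did not share.

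Macrophage markers were traces that were mostly higher in sGC ∆PC, with 5 of 6 genes compared above 0 and a median log2 ratio of 0.62. The 19 genes, with Tyrobp, Fcer1g and Ctss of the rule among them, summed to 458 and 574 CPM, a level that the selection limited. The most abundant was Spp1 at 114 and 207 CPM, a gene that cancer barcodes also held. Lyz2, the macrophage lysozyme gene, was at 76.9 CPM in sGC Ctr ECs and 127 CPM in sGC ∆PC ECs, which is 0.497% and 0.845% of its level in macrophage barcodes. Apoe, the apolipoprotein E gene, went the other way, at 81.7 and 39.3 CPM (2.68% and 2.09% of the macrophage level), and was the 1 gene of the 6 past 2-fold. The part of macrophage RNA in the differences of other lists was not tested. Cancer markers, 14 genes including those of the rule, summed to 162 and 168 CPM, led by Tnfrsf12a. Fibroblast markers summed to 229 and 190 CPM, dendritic cell markers to 392 and 362 CPM, of which Fscn1, an actin-bundling gene, gave 518 of 576 and 387 of 387 UMIs. Granulocyte markers gave 57 and 41 UMIs, platelet markers 17 and 6, hemoglobin and other red cell genes 43 and 2, and T and natural killer lymphocyte markers 58 and 4. Of the lymphocyte UMIs in sGC Ctr 28 were Ccl5 in 1 cell, which held no UMI of Cd3d or Trbc2. Other sGC Ctr members held 12 UMIs of Ms4a4b, 5 of Trbc2 and 4 of Cd3d, all T cell genes, and sGC ∆PC members held none.

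Between the libraries most genes were close to equal. Of 14166 genes detected, 5920 had at least 50 UMIs over both libraries and were compared, with a median log2 ratio of sGC ∆PC over sGC Ctr of 0.00 and 90% of genes between -0.53 and 0.60. In sGC ∆PC 48 genes (0.811%) were at least 2-fold higher and 49 (0.828%) at least 2-fold lower. These shares are the background against which the lists below can be read. None of the 23 endothelial genes outside the rule that were compared passed 2-fold, their median was -0.03, and the ends were Clec14a at -0.53 and Robo4 at 0.79. The 6 markers of the rule served to choose the cells, so their ratios describe the choice and are not findings. Among them Cldn5, a tight junction gene, was lowest at -0.51, with 1439 and 1008 CPM. Cdh5, the adherens junction cadherin, was level at 0.01.

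**Figure D2:**
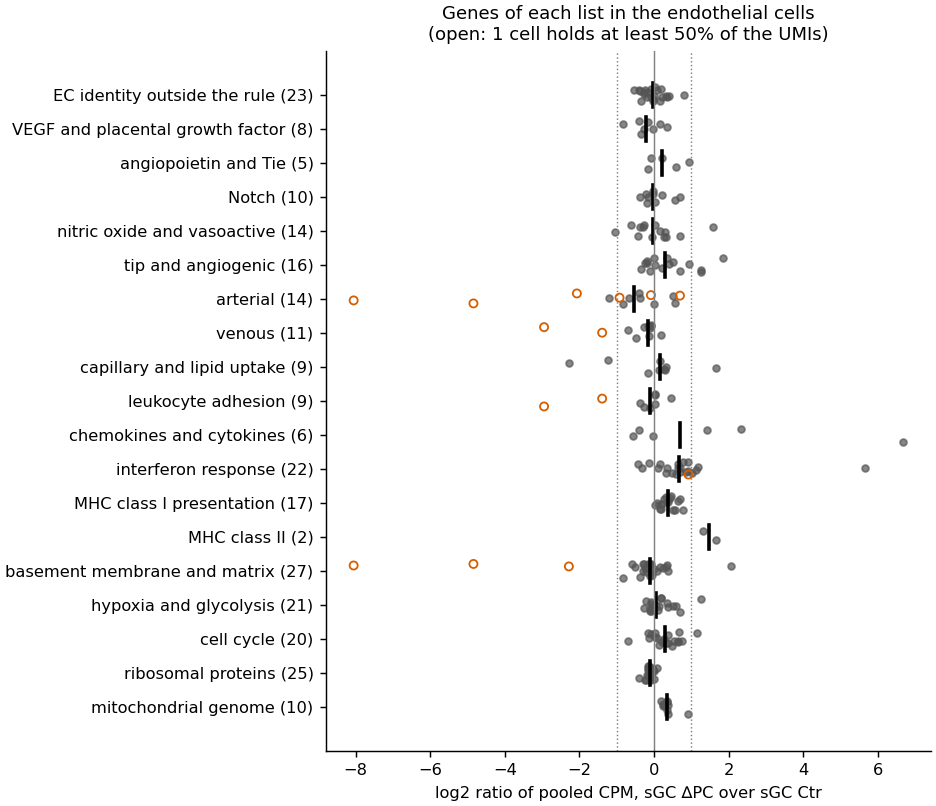
Each point is a gene with at least 50 UMIs, placed by its log2 ratio of pooled CPM in sGC ∆PC over sGC Ctr ECs, with the number of genes of each list in parentheses, black bars at list medians and dotted lines at 2-fold. Open circles are genes of which 1 cell held at least 50% of the UMIs in the library where the gene was higher; most of the lowest arterial and venous values are of this kind, while 19 of 22 interferon and 17 of 17 MHC class I genes lie to the right of 0.

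Ligands and receptors of the VEGF family differed little. None of 8 genes compared passed 2-fold and their median was -0.21. Kdr, the main signaling receptor, was at 282 and 276 CPM (log2 ratio -0.03, interval -0.25 to 0.19), and Flt1, a receptor that also acts as a decoy, was at 1099.5 and 832 CPM (-0.40, -0.52 to -0.28). The placental growth factor gene Pgf was at 303 and 387 CPM (0.35, 0.16 to 0.55), in 31 and 26 cells. The lymphangiogenic ligand gene Vegfc had 55 and 22 UMIs (-0.84, -1.65 to -0.13). In the angiopoietin and Tie list none of 5 genes passed 2-fold. Angpt2, the ligand that ECs release and that destabilizes vessels, was at 262 and 501 CPM (0.93, 0.74 to 1.13), Angptl4 at 91.9 and 139 CPM, and the receptor gene Tek at 80.3 and 75.8 CPM. Angpt1, the ligand of mural cells, gave 0 UMIs in both libraries.

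The Notch list was level as well, with none of 10 genes past 2-fold and a median of -0.04. Its ligand gene Dll4, a marker of tip cells, was at 161 and 185 CPM (0.21, -0.07 to 0.48), Jag2 at 74.9 and 76.7 CPM, the receptor gene Notch4 at 136 and 132 CPM, and the target gene Hes1 at 323 and 280 CPM. Rbpj, the transcription factor through which all Notch receptors act, was at 42.2 and 68.3 CPM (0.69, 0.19 to 1.21).

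Among 14 nitric oxide and vasoactive genes 1 was at least 2-fold higher and 1 at least 2-fold lower. Edn1, which encodes the constrictor peptide endothelin-1, was at 59.9 and 179 CPM (log2 ratio 1.57, 1.21 to 1.96), found in 14 and 20 cells, with 42.0% of the sGC Ctr UMIs in 1 cell. With every cell weighted equally Edn1 was at 0.85, short of 2-fold. Ednrb, the gene of the endothelin receptor that ECs carry, was at 158 and 76.7 CPM (-1.04, -1.42 to -0.67), in 37 and 26 cells. With cells of 200 CPM or more of cancer genes left out its value was -0.88. Nos3 was at 164 and 127 CPM (-0.36, -0.68 to -0.06) in 48 and 30 cells, and at -1.26 with cells thinned to 2000 UMIs. Its regulators Klf2 and Klf4 were at 211 and 214 CPM and at 70.1 and 113 CPM. The sGC genes were at or near 0 in the ECs, with 1 and 0 UMIs of Gucy1b1 and none of Gucy1a1. In mural barcodes Gucy1b1 had 67 UMIs (52.0 CPM) in sGC Ctr and 20 UMIs (11.9 CPM) in sGC ∆PC.

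Tip cell and angiogenic genes leaned higher in sGC ∆PC. Of 16 genes 3 were at least 2-fold higher and none lower, with a median of 0.28. Esm1 (endocan), a secreted proteoglycan of tip cells, was at 72.2 CPM in sGC Ctr and 260 CPM in sGC ∆PC (1.85, 1.52 to 2.19). It was found in 21 of 57 and 26 of 50 cells, with a median of 0 and 38.3 CPM and a highest cell of 958 and 1099 CPM, and 9 and 13 cells held at least 5 UMIs, so the ranges overlapped and the median cell differed. Adm, the vasodilator adrenomedullin, was at 142 and 339 CPM (1.26, 1.01 to 1.51) in 37 cells of each library. Cancer barcodes held Adm too, at 166 and 149 CPM. Cxcr4, the receptor for Cxcl12, was at 53.8 and 129 CPM (1.26, 0.85 to 1.68) in 27 and 34 cells.

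Other tip cell genes differed by less. Apln, the peptide apelin, was at 428 and 691 CPM (log2 ratio 0.69, 0.53 to 0.85) in 37 and 32 cells, and its receptor gene Aplnr was at 70.1 and 43.0 CPM (-0.70, -1.24 to -0.19). Pdgfb, which recruits pericytes, was at 349 and 498 CPM, and Mcam at 432 and 574 CPM. Col4a1, a basement membrane collagen and the most abundant gene of the list, was at 3254 and 3264 CPM (0.00). At 2000 UMIs a cell, Esm1 was seen in 7.0% of sGC Ctr ECs (exact binomial interval 1.9 to 17.0%) and 32.0% of sGC ∆PC ECs (19.5 to 46.7%), and in at most 0.173% of macrophage or cancer barcodes. Among the cancer-rich barcodes with endothelial markers the same gene was in 6.7% and 8.1%, with pooled levels of 18.9 and 17.8 CPM.

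**Figure D3:**
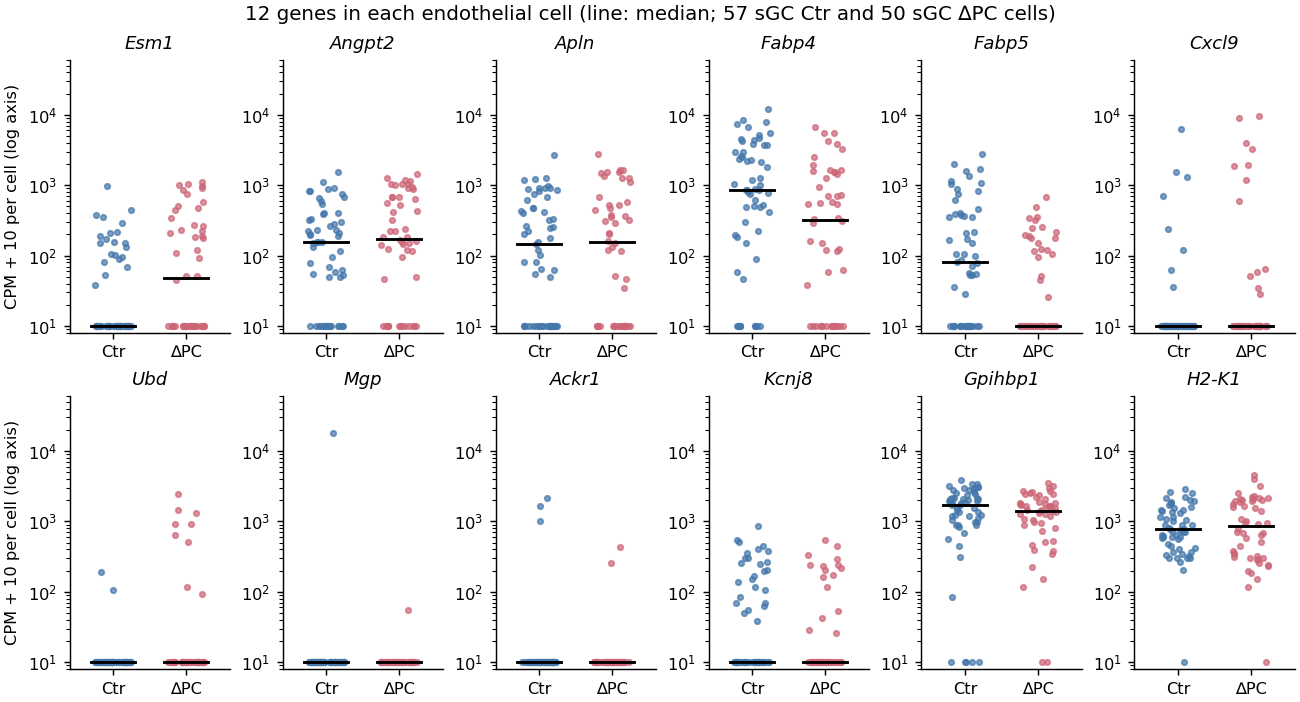
Each point is 1 EC, with its level of the gene as CPM + 10 on a log axis, for the 57 sGC Ctr (blue) and 50 sGC ∆PC (red) cells; black lines are medians and cells without a UMI lie at 10. Fabp4 differs over many cells, whereas Cxcl9 and Ubd rest on a minority of cells and Mgp on 1 sGC Ctr cell. Esm1 was found in 21 and 26 cells, and 3 cells held 47.8% of its sGC ∆PC UMIs.

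Arterial genes were lower in sGC ∆PC when 1 sGC Ctr cell was counted. The smaller set of genes compared without that cell was not lower by its median. Of 14 genes 4 were at least 2-fold lower and none higher, with a median of -0.53. A single sGC Ctr cell of 30688 UMIs held all 546 UMIs of Mgp (matrix Gla protein), 97.2% of 216 UMIs of Eln (elastin), 91.7% of 60 UMIs of the arterial connexin gene Gja5 and 65.2% of 92 UMIs of Gja4. It also held 47.5% of the 238 UMIs of Ltbp4 and 35.1% of the 308 UMIs of Fbln5, both elastic fiber genes. In sGC ∆PC the Mgp and Eln totals were 1 and 5 UMIs. The nearest sGC ∆PC cell, of 21640 UMIs, held 3 UMIs of Eln, 24 of Fbln5, 17 of Ltbp4 and 11 of Gja4, and none of Mgp. Without the 1 cell the median of the arterial list was 0.17, Ltbp4 was at -0.30, and Gja5 and Mgp were higher in sGC ∆PC, at 1.36 and 2.01, the latter on 1 UMI. The arterial transcription factor Sox17, spread over 39 and 33 cells, was at 106 and 150 CPM (0.50, 0.18 to 0.83), and the ephrin gene Efnb2 was at 107 and 108 CPM.

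Venous genes leaned lower in sGC ∆PC, with 2 of 11 at least 2-fold lower, 10 of 11 below 0 and a median of -0.16. The median lay between -0.49 and -0.12 under the 14 other settings, taken over the members that passed the gene filter in each. The 2 genes past 2-fold rested largely on single cells. Ackr1, a chemokine-binding receptor of venules, had 79 and 7 UMIs in 3 and 2 cells, 74.7% of the sGC Ctr UMIs in 1 cell. It was compared only because of its sGC Ctr counts, so its place among the lower genes followed from the filter. Selp (P-selectin) had 113 and 31 UMIs in 15 and 8 cells, 53.1% of those in sGC Ctr in 1 cell, and its log2 ratio of -1.39 became -0.93 when the highest cell of each library was left out. The more widely found venous genes were closer to equal: Vwf was at 317 and 299 CPM in 47 and 39 cells, and Lrg1 at 568 and 404 CPM (-0.49) in 48 and 39 cells. Lymphatic genes were found in few cells. The lymphatic transcription factor Prox1 had 4 UMIs, all in 1 sGC Ctr cell of 7364 UMIs that also held 7 of 8 UMIs of Mmrn1 and 14 of 29 of Lyve1. In sGC ∆PC Prox1 and Mmrn1 gave 0 UMIs, and 1 cell held 23 of 29 UMIs of Lyve1.

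The fatty acid binding genes of capillaries were lower in sGC ∆PC, and Fabp4 was the most abundant gene past 2-fold apart from Gm42418, which is described further down. Of 9 capillary and lipid uptake genes 2 were at least 2-fold lower and 1 higher, while 6 were above 0 and the median of the list was 0.17. Fabp4, a fatty acid binding protein of capillary ECs, was at 2403 CPM (3529 UMIs) in sGC Ctr and 1017 CPM (1087 UMIs) in sGC ∆PC (log2 ratio -1.24, -1.34 to -1.14). It was found in 48 of 57 and 35 of 50 cells, with a median of 860 and 311 CPM and a highest cell of 12029 and 6714 CPM, so that the ranges overlapped widely and the lower level was spread over cells. At 2000 UMIs a cell Fabp4 was seen in 71.9% (58.5 to 83.0%) and 50.0% (35.5 to 64.5%) of ECs and in at most 1.23% of macrophage or cancer barcodes. At that depth its log2 ratio was -0.75, short of 2-fold. Fabp4 was also lower in the cancer-rich barcodes, at 431 and 102 CPM (-2.07), and in mural barcodes, at 529 and 230 CPM. Endothelial genes outside the rule were lower there as well, at -0.51 and -1.05 summed, and their part in the Fabp4 values was not tested.

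Fabp5, a second fatty acid binding protein, was at 458 and 94.5 CPM (-2.27, -2.59 to -1.97), in 37 and 21 cells, with 3 cells holding 51.9% of the sGC Ctr UMIs. Macrophage barcodes carried it at 453 and 438 CPM and cancer barcodes at 100.5 and 110 CPM, close to level between the libraries. Other capillary genes lay closer to 0 and mostly above it. Gpihbp1 was at -0.16, the fatty acid translocase gene Cd36 at 0.32, the water channel gene Aqp1 at 0.12 and the caveolin gene Cav1 at 0.28. Car4, a carbonic anhydrase of capillary ECs, had 18 and 42 UMIs in 6 and 8 cells (1.66), and was at 0.84 with thinning.

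Interferon-induced genes were higher in the sGC ∆PC ECs, and the largest differences lay in few cells. Of 22 genes compared 4 were at least 2-fold higher (Irf7, Gbp3, Gbp5 and Ubd) and none lower, 19 were above 0, and the median was 0.68. Ubd reached 50 UMIs only through its sGC ∆PC counts, so its place among the 4 followed from the filter. The 21 genes without Ubd had a median of 0.65 and a summed log2 ratio of 0.23. Ubd, a ubiquitin-like modifier induced by interferon gamma, had 4 UMIs in 2 sGC Ctr cells and 165 UMIs in 9 sGC ∆PC cells (log2 ratio 5.66, 4.44 to 7.72). Cxcl10 and Cxcl9, chemokines that attract activated T cells and lie next to each other on chromosome 5, had 1 and 111 UMIs in 1 and 9 cells and 199 and 736 UMIs in 8 and 13 cells. In sGC ∆PC 3 cells held 73.8% of the Cxcl9 UMIs, and in sGC Ctr 3 cells held 93.5%. In sGC ∆PC 6 cells carried all 3 genes, and in sGC Ctr none did. At 2000 UMIs a cell 6 of 57 sGC Ctr ECs (10.5%, 4.0 to 21.5%) and 10 of 50 sGC ∆PC ECs (interval 10.0 to 33.7%) carried any of the 3 genes, beside 9.2% and 15.7% of macrophage barcodes and 2.9% and 4.2% of cancer barcodes.

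The stretches before the start sites of interferon genes, shown because most of these genes were higher together, often hold the letters of the interferon-stimulated response element. Searched on both strands of the 250 bases before each start in RefSeq (GRCm38.p6), GAAA repeated after any 2 bases was present at 15 of the 26 interferon list genes matched by symbol (57.7%), 3 of 16 MHC class I genes and none of 13 tip cell genes, against 3.46% of all 27025 genes. Of the 3 genes named above only Cxcl10 held the motif in this window. The stretches below run 5′ to 3′ on the gene's strand, with matches on either strand in capitals, for Cxcl10 (chr5:92349083-92349112, minus strand) and for 3 members of the interferon list, Ifitm2 (chr7:140955988-140956017, minus), Gbp2 (chr3:142620594-142620623, plus, where the match is on the opposite strand) and Isg15 (chr4:156200871-156200900, minus).
Cxcl10: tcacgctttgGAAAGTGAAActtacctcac
Ifitm2: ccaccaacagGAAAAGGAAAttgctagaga
Gbp2: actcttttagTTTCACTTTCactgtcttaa
Isg15: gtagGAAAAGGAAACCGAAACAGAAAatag
A match of letters is a description of the sequence and was not tied to binding in these cells.

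Other interferon genes differed by less than Ubd and the chemokines, and several were found in more cells. Bst2 (tetherin), which holds enveloped viruses at the cell surface, was at 351 and 571 CPM (log2 ratio 0.70, 0.53 to 0.87), found in 53 of 57 and 48 of 50 cells. The guanylate-binding protein gene Gbp2 was at 91.2 and 166 CPM (0.86, 0.53 to 1.19) in 20 and 24 cells. The ubiquitin-like Isg15 was at 68.1 and 129 CPM (0.92), but in 35 and 23 cells, and 1 cell held 50.7% of its sGC ∆PC UMIs. The most abundant members, Ifitm3 and Ifitm2, were at 0.12 and -0.31. With every cell weighted equally the median of the list was 0.48, and with every cell thinned to 2000 UMIs it was 0.32. Under thinning Irf7 and Gbp3 were at 0.19 and 0.48, short of 2-fold, and among cells under 5% mitochondrial UMIs Gbp5 was at 0.28.

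MHC class I genes, which display peptides to cytotoxic T cells, were slightly higher in sGC ∆PC. None of 17 passed 2-fold, and 17 of 17 were above 0, between Psme2 at 0.03 and H2-Q6 at 0.77, with a median of 0.37. H2-K1 was at 918 and 1186 CPM (0.37, 0.26 to 0.48), with 766 and 843 CPM in the median cell, the light chain gene B2m at 1181 and 1545 CPM (0.39), H2-D1 at 1309 and 1524 CPM (0.22), and the immunoproteasome subunit gene Psmb8 at 201 and 251 CPM (0.32). The difference between the median cells of H2-K1 was thus smaller than that between its pooled levels. The median of the list was 0.24 with every cell weighted equally, 0.12 with cells thinned to 2000 UMIs and 0.18 among cells with under 5% mitochondrial UMIs. Some members were then below 0, namely Tap2 and Psmb9 with equal weights, H2-T23, H2-Q4, Tap2 and Psmb8 with thinning, and Tap2 and Psme2 with the mitochondrial limit. Across the 107 cells at 2000 UMIs the summed interferon and class I lists had a Spearman rho of 0.52 (0.32 within sGC Ctr and 0.71 within sGC ∆PC), where cells of a library share its preparation.

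MHC class II genes were at a trace level that was higher in sGC ∆PC. The 7 genes gave 111 UMIs (75.6 CPM) in sGC Ctr and 226 UMIs (211 CPM) in sGC ∆PC, and both genes compared, Cd74 and H2-Ab1, passed 2-fold. H2-Ab1, with 21 and 38 UMIs, was compared only because of its higher sGC ∆PC count, so its place followed from the filter. H2-Aa (18 and 24 UMIs) and H2-Eb1 (15 and 23 UMIs) fell short of the filter and were not compared. Cd74, the invariant chain, had 50 and 115 UMIs (log2 ratio 1.65, 1.17 to 2.17) in 14 and 23 cells. In sGC Ctr 34 of the UMIs lay in 1 cell, and in sGC ∆PC 45 and 41 lay in 2 cells, with at most 4 in any other. With thinning to 2000 UMIs Cd74 was at 0.81 and H2-Ab1 at 0.67. Macrophage barcodes held Cd74 at 2207 and 2827 CPM. In cancer barcodes it was at 17.0 and 62.5 CPM (1.88), and in the cancer-rich barcodes with endothelial markers at 22.1 and 96.5 CPM (2.11), so the same direction was measured outside macrophages and ECs. The EC level of Cd74 was 1.54% and 3.81% of the macrophage level, beside 0.497% and 0.845% for Lyz2 and 2.68% and 2.09% for Apoe. The part of free macrophage RNA in the class II counts was not tested.

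**Figure D4:**
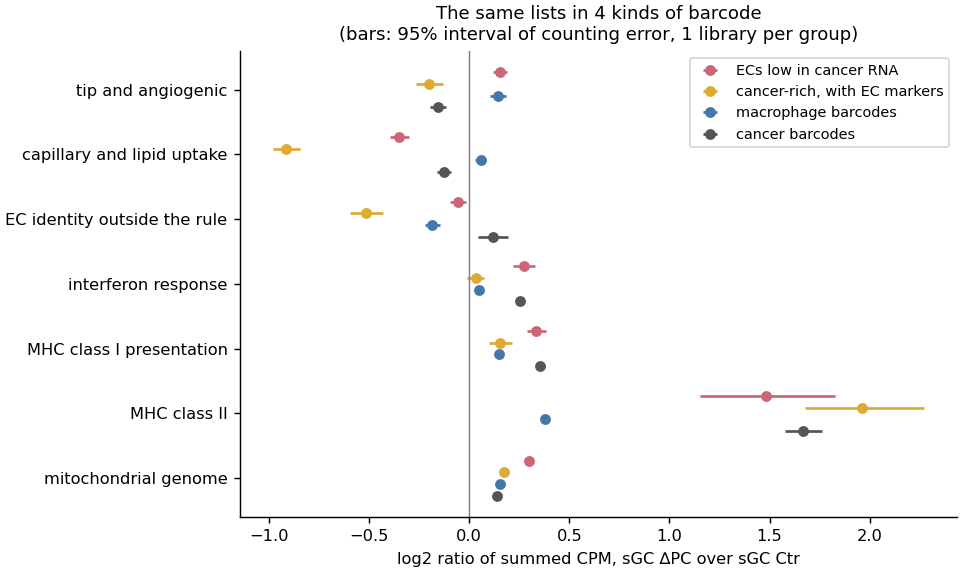
Points are log2 ratios of the summed CPM of a list in sGC ∆PC over sGC Ctr, for the ECs low in cancer RNA, the cancer-rich barcodes with endothelial markers, macrophage barcodes and cancer barcodes, with bars for the 95% interval of counting error (1 library per group). MHC class II is higher in all 4 kinds, at 1.96 in the cancer-rich barcodes and 1.67 in cancer barcodes. The sum of the capillary list is at -0.35 in the ECs, where Fabp4 is abundant and the median gene is at 0.17.

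Several of these directions were also measured outside the ECs. The median log2 ratio of the interferon list was 0.84 in cancer barcodes, 0.17 in macrophage barcodes and -0.33 in the cancer-rich barcodes with endothelial markers, and that of the class I list was 0.46, 0.20 and -0.07. Summed, the interferon list stood at 0.27 in the ECs (0.22 to 0.33), less than its median because of the abundant Ifitm genes, and at 0.26 in cancer barcodes. All 10 mitochondrial transcripts were higher in the sGC ∆PC ECs, with a median of 0.34 beside 0.18 in cancer and 0.17 in macrophage barcodes. Gm42418, a transcript that overlaps the ribosomal RNA locus and follows ribosomal RNA carryover, was the most abundant gene over both libraries and in sGC ∆PC, below Tmsb4x in sGC Ctr, and was at 12025 and 26904 CPM (1.16), beside 4050 and 15730 CPM in cancer and 14663 and 33684 CPM in macrophage barcodes. Of 25 ribosomal protein genes 22 were lower, with a median of -0.11. The part of RNA quality in the EC differences was not tested.

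Chemokine genes held some of the largest ratios, again with a few cells carrying much of the counts. Of 6 genes compared 3 were at least 2-fold higher, Cxcl10, Cxcl9 and Ccl2, and the other 3 were lower, none by 2-fold. Cxcl10, with 1 and 111 UMIs, was compared only because of its sGC ∆PC counts, so its place among the 3 higher genes followed from the filter. Ccl2, which attracts monocytes, was at 265 and 713 CPM (log2 ratio 1.43, 1.25 to 1.61) in 34 and 35 cells, with a median cell of 36.5 and 101 CPM. In sGC ∆PC 43.0% of its UMIs lay in 1 cell, and in cells under 200 CPM of myeloid genes its value was 0.20. Cancer barcodes held Ccl2 at 431 and 550 CPM and macrophage barcodes at 638 and 580 CPM. Cxcl12 was at 146 and 110 CPM (-0.40). Of 9 leukocyte adhesion genes none was higher by 2-fold and 2 lower, Ackr1 and Selp, with the limits given above. Icam1 had 76 and 51 UMIs (-0.11), Vcam1 57 and 34 (-0.28), and Sele 4 and 0.

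By the rule for the largest ratios, the 12 highest genes found in at least 10 cells, with no cell holding 50% of the UMIs in the library where the gene was higher, were Cxcl10, Ubd, Mt2, Mt1, Cxcl9, Thbs1, Zbp1, Esm1, Car4, Cd74, Edn1 and Ccl2. Mt2 (25 and 129 UMIs), Zbp1 and Car4 (18 and 42 UMIs) reached 50 UMIs only through their higher sGC ∆PC counts. Like those of Cxcl10 and Ubd, their places among the 12 followed from the filter. The metallothionein genes Mt1 and Mt2, neighbors on chromosome 8 that bind zinc and copper, were at 49.0 and 306 CPM (2.63) and 17.0 and 121 CPM (2.80). The median cell held 40.2 and 109 CPM of Mt1, the highest 232 and 14951 CPM, and 2 sGC ∆PC cells held 105 and 92 of the 327 UMIs. Over the other settings Mt1 lay between 1.30 and 3.61 and Mt2 between 1.33 and 3.58, lowest among cells with at least 10 marker UMIs for Mt1 and under 5% mitochondrial UMIs for Mt2. Fewer than 10 marker UMIs were held by 1 sGC Ctr cell and 5 sGC ∆PC cells. Cancer barcodes held 968 and 909 CPM of Mt1, level between the libraries, whereas the cancer-rich barcodes with endothelial markers held 414 and 1182 CPM. Thbs1 (thrombospondin-1), an angiogenesis inhibitor, had 68 and 207 UMIs in 22 and 23 cells (2.06, 1.66 to 2.48). In sGC ∆PC 3 cells held 53.1% of the Thbs1 UMIs, and its value lay between 1.01 and 2.66 over the settings. Macrophage barcodes held Thbs1 at 351 and 597 CPM. Zbp1, a sensor of nucleic acids that interferon induces, had 14 and 39 UMIs (1.90), and was at -2.13 with thinning.

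The 12 lowest were Fabp5, Nmb, N6amt1, Tusc2, Itgb4, Phlda1, Zmiz2, Cacng4, Fabp4, Gm26532, Dtnbp1 and Txndc11. Apart from the fatty acid binding proteins all had 82 or fewer UMIs in sGC Ctr. Nmb (neuromedin B) had 66 and 16 UMIs in 21 and 9 cells (-1.55, -2.47 to -0.78), and the integrin gene Itgb4 46 and 13 UMIs in 12 and 7 cells, at -0.79 without the cell rich in artery genes. Tusc2, Zmiz2, Dtnbp1 and Txndc11 were found in 28 to 31 sGC Ctr and 10 or 11 sGC ∆PC cells. Over the settings the smallest differences were -0.17 for Zmiz2, -0.77 for Txndc11, -0.83 for Dtnbp1 and -0.93 for Phlda1, all short of 2-fold. Cacng4, which encodes a subunit of calcium and glutamate channels, gave 0 CPM in macrophage and cancer barcodes and 47 and 14 UMIs in 11 and 5 ECs.

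The remaining lists had few genes past 2-fold, several of them genes already described, with the limits given there. Of 27 basement membrane and matrix genes 1 was higher by 2-fold (Thbs1) and 3 were lower (Mgp, Eln and Bgn, the last with 79.4% of its sGC Ctr UMIs in 1 cell), with a median of -0.11, and the most abundant, Sparc, was at 7833 and 6043 CPM (-0.37). Of 12 BMP and TGF-beta genes 2 were lower, Ltbp4 and Id2, and the median was -0.19. Of 13 signals to mural cells 1 was higher, Edn1, with a median of 0.21, and of 16 junction genes 1 was lower, Gja5, with a median of -0.07. Hypoxia and glycolysis genes had 1 of 21 higher (Adm) and a median of 0.05, immediate early and heat shock genes 1 of 21 (Zfp36) and 0.22, cell cycle genes 1 of 20 (Mcm5, with 22 and 36 UMIs) and 0.28, with 16 of 20 above 0, and the integrated stress response none of 6 and 0.22. Mcm5 reached 50 UMIs only through its higher sGC ∆PC count. The proliferation marker Mki67 was found in 14 of 57 and 11 of 50 cells.

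At equal depth most cells carried genes of several lists at once. A cell was said to carry a state when it had at least 2 UMIs from at least 2 genes of a list after thinning to 2000 UMIs. By this measure all 57 and all 50 cells carried the tip cell and angiogenic list, 53 of 57 and 47 of 50 the capillary list, 57.9% (44.1 to 70.9%) and 42.0% (28.2 to 56.8%) the venous list, and 22.8% (12.7 to 35.8%) and 26.0% (14.6 to 40.3%) the arterial list. The tip cell list is led by Col4a1, a basement membrane collagen, and a mark that every EC reached does not separate tip cells from other ECs. The lymphatic list was carried by 1 cell in each library and MHC class II by 4 and 2 cells. Of macrophage barcodes 322 of 2926 and 354 of 2751 carried the tip cell list, 1.8% and 2.7% the venous and 0.4% and 1.0% the arterial list. Mural barcodes carried them far more often, the tip cell list in 86.3% and 60.7%, the capillary list in 56.9% and 39.3%, the venous list in 15 of 51 and 16 of 89 barcodes and the arterial list in 31.4% and 22.5%, so the lists were not particular to the ECs. Cancer-rich barcodes carried the tip cell list in 40.0% and 66.2% and the capillary list in 40.0% and 41.2%. The cell cycle list was carried by 87.7% and 84.0% of ECs but also by 81.5% and 83.7% of macrophage barcodes, and it contains genes such as Tubb5 that resting cells transcribe. For each of these lists the EC intervals of the libraries overlapped, which decides nothing about the groups because the intervals cover counting error alone. The capillary and arterial lists had a rho of 0.07 across the sGC Ctr cells and 0.50 across the sGC ∆PC cells, and the tip cell and venous lists -0.17 and 0.12.

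**Figure D5:**
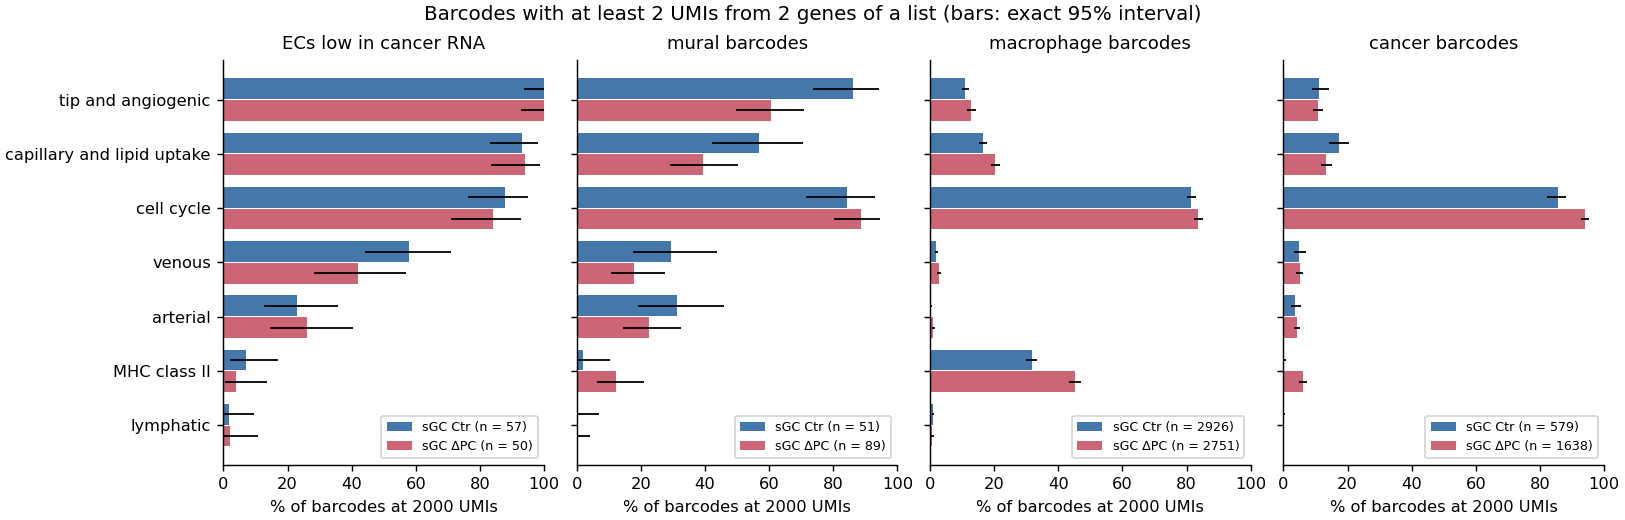
Bars are the percentage of barcodes that carried at least 2 UMIs from at least 2 genes of a list after thinning to 2000 UMIs, with exact 95% binomial intervals, for ECs low in cancer RNA, mural, macrophage and cancer barcodes of sGC Ctr (blue) and sGC ∆PC (red). The tip cell and capillary lists were carried by at least 53 of 57 and 47 of 50 ECs by 39.3 to 86.3% of mural barcodes and by at most 20.4% of macrophage or cancer barcodes, while the cell cycle list was carried by more than 80% in all 4 panels.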

How the data were processed

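Tumors had been digested with collagenase, dispase and DNase, red cells lysed, and 3′ libraries made with the 10x Genomics kit. The authors deposited raw UMI counts per gene and barcode from Cell Ranger 6.1.1 on mm10; these whole-number counts were used as deposited. Barcodes were selected by the rule above, and each library was 1 sample. No doublet caller was run, and the limits on cancer, myeloid and Rgs5 transcripts were the only guard against mixed barcodes. UMIs were summed over the cells of a library and expressed as CPM. Log2 ratios used a pseudocount of 0.5 counts and genes of at least 50 UMIs. Intervals are exact (Poisson, Clopper-Pearson, conditional binomial) and cover counting error only. Calculations in Python 3.11.15 with numpy 2.4.6, scipy 1.17.1, pandas 2.3.3 and matplotlib 3.10.9 were tested on simulated data. The members and gene lists were chosen with earlier results of these data known. Genes named were list members by role, the 12 largest ratios each way in at least 10 cells with no cell holding 50% of the UMIs of the library where the gene was higher, the 10 most abundant, and the 10 highest above other barcodes (1 is not reported here); other members of lists, such as Gbp2, Isg15, Psme2, H2-Q6, Bgn, Id2, Zfp36 and Mcm5, were named after their values were seen. Macrophage barcodes held at least 2000 CPM of the myeloid genes, and cancer barcodes at least 4 times the limit of the rule on cancer genes, with no UMI of the endothelial markers of the rule in either. Promoter windows were taken from RefSeq (GRCm38.p6). Alternatives concerned the limits of the rule, weighting of cells, depth, pseudocount and scaling.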

Additional observations from a re-analysis of the deposited data

How the results depend on the processing

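With 1 library per group, no replicate could be left out and no paired analysis was possible because there are no pairs of samples. The share of barcodes, the counts of genes past 2-fold and the median log2 ratio were recomputed under 6 other limits of the rule, a filter of 3 median absolute deviations, and the settings of weighting, depth, gene filter, pseudocount and scaling. Neither the filter of 3 deviations nor a minimum of 2000 UMIs removed a cell. With a mitochondrial share under 5% the cells were 0.260% and 0.101% of barcodes (39 and 26 cells) and 78 genes were at least 2-fold higher and 64 lower. With the mean of per-cell CPM 79 genes were higher and 126 lower, with every cell thinned to 2000 UMIs 9 and 5 of 611 genes, and with genes of at least 20 UMIs 194 and 184 of 8558. The median of all genes stayed between -0.06 and 0.02. Of the 24 genes named for the largest ratios 18 to 24 were past 2-fold in the same direction under each setting, the fewest with thinning. Zbp1 changed sign with thinning (-2.13), where few UMIs were left. Without the sGC Ctr cell rich in artery genes Gja5 was at 1.36, Mgp at 2.01 and Eln at 0.19. That alternative was chosen after seeing the data. Without the highest cell of each library Mgp was at 0.46, but neither library then held a UMI of the gene. The value of 0.46 came from the pseudocount and the unequal library totals alone, and says nothing about the level of Mgp. Scaling without Gm42418, also chosen after seeing the data, gave 55 genes higher and 48 lower. Low counts limit Gucy1b1, the class II and the lymphatic genes.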
